A study of Mus musculus with 35 samples.

Results

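Small RNA of mouse male germ cells was counted per tRNA and per end of the tRNA that a read came from, and the entries examined here are those to which no end was assigned. The reads of a tRNA were split by the authors into those at its 5′ end, those at its 3′ end and those at the 3′ end that carries the added CCA tail, and a read that fell to none of these was listed under the bare name of the tRNA. Such a fragment therefore came from inside the tRNA or from a part not assigned to an end, and the table gives neither its position nor its length. The members were all entries of the tRNA table without an end label, 76 of 284 entries. With at least 10 counts required in at least 3 of the 16 libraries, 67 of the 76 entered the comparisons, beside 46 entries of 5′ ends, 70 of CCA ends and 2 of 3′ ends, 185 in all. Of the 67, 48 belong to nuclear tRNAs and 19 to mitochondrial tRNAs, which carry the prefix mt below. The 9 entries that did not pass were Ser-GGA and Sup-TCA of the 50 nuclear entries, mt Lys-TTT, mt Tyr-GTA and mt Trp-TCA of the 22 mitochondrial ones and all 4 entries of tRNA precursors (pre Ile-TAT, pre Tyr-GTA, pre Leu-CAA and pre Arg-TCT). Just inside the limit, mt Phe-GAA and Ser-CGA had a third-highest count of 10, and just outside it pre Ile-TAT had 9 and mt Lys-TTT 8.

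Transfer RNAs bring amino acids to the ribosome, and each is named by its amino acid and by the anticodon that reads the codon, so that Gly-CCC is a glycine tRNA with the anticodon CCC. They are also cut into stable fragments. Fragments of the 5′ side of a few nuclear tRNAs, among them Gly-GCC, Gly-CCC, Glu-CTC and Val-CAC, are known to be abundant in mature mouse sperm, whereas fragments from the inside of tRNAs have been studied less. Mitochondria carry a separate set of tRNA genes on their own circular genome, which serves the translation of the mitochondrial proteins.

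The study deleted Smg6, the gene of an endonuclease of nonsense-mediated RNA decay, in male germ cells. Conditional knockout mice (cKO) were Smg6(fx/fx);Ngn3Cre+, in which Cre under the Neurogenin 3 promoter removes exon 9 in germ cells from an early postnatal stage, and controls (CTRL) were Cre-negative littermates with 1 or 2 floxed alleles, all adult mice of a mixed C57Bl/6J and SV129 background. Pachytene spermatocytes (Spc), which are in meiotic prophase, and round spermatids (RS), the early haploid cells, were enriched by sedimentation from the pooled testes of several mice. Small RNA was sequenced in 5 CTRL and 5 cKO libraries of Spc and 3 CTRL and 3 cKO libraries of RS. The paper states that small RNA came from the samples of the long RNA libraries, of which there were 3 per group, so the 5 libraries of a Spc group need not be separate preparations, and p-values over them then measure in part a technical spread. Libraries are named S15 to S30, as their columns in the table are.

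The tRNA table held 37315 to 105677 counts per library, and 3232 to 9182 of these carried no end label. Whole-gene Smg6 counts in the long RNA libraries, scaled to a library total of 1000000 (CPM), were 156 ± 34.1 in CTRL Spc, 186 ± 4.75 in cKO Spc, 139 ± 30.2 in CTRL RS and 213 ± 2.67 in cKO RS (mean ± SD, n = 3), and such whole-gene counts do not check the loss of the exon. Germ cell miRNAs (12 of 12 measured, among them miR-34c and miR-449a) summed to 320656 to 360446 CPM of the miRNA table in CTRL Spc, 286139 to 448570 in cKO Spc, 438175 to 465516 in CTRL RS and 259359 to 338789 in cKO RS. In the RS libraries most of the sum was miR-34c, at 302750 to 323875 in CTRL RS and 161892 to 181762 in cKO RS. Of the 12, miR-34c and miR-34b (35693 to 40418 in CTRL RS and 17807 to 27654 in cKO RS) were lower in every cKO RS library. Another 3 were higher in every cKO RS library, miR-449c (35.3 to 68.4 and 181 to 207), miR-871 (5103 to 5528 and 6086 to 7160) and miR-470 (3611 to 4077 and 4973 to 6106), and the other 7, miR-449a among them (42781 to 47959 and 29408 to 56375), overlapped. In Spc, miR-741 was at 32235 to 41947 in CTRL and 14887 to 24626 in cKO, and miR-880 at 17509 to 22689 and 6177 to 10183. These, miR-881, miR-465a, miR-465c, miR-470 and miR-463 were lower in every cKO Spc library. miR-449c was higher in every one (16.2 to 43.8 and 212 to 499), and miR-34b, miR-34c, miR-449a and miR-871 overlapped. Markers of other cells also differed between the groups. Leukocyte miRNAs (4 of 4) summed to 2699 to 3920 in CTRL Spc, 4714 to 24909 in cKO Spc, 5507 to 5846 in CTRL RS and 8450 to 33244 in cKO RS. The smooth muscle miRNAs miR-143 and miR-145a summed to 275 to 700 in CTRL Spc and 1726 to 4798 in cKO Spc, and to 635 to 847 in CTRL RS and 978 to 8421 in cKO RS. Endothelial miR-126a stood at 192 to 813 and 581 to 1862 in CTRL and cKO Spc, and at 360 to 482 and 945 to 1784 in CTRL and cKO RS. Erythroid miRNAs (3 of 3) lay between 8.72 and 156 in 13 libraries and were high in S22 of cKO Spc (3051) and in S15 (2646) and S17 (1477) of cKO RS. Their miR-144 was at 0 in S16, S27 and S29, and miR-451a in S25 and S29. The gonadal miR-202 stood at 12907 to 17595 in CTRL Spc, 2448 to 5713 in cKO Spc, 798 to 1271 in CTRL RS and 1632 to 8715 in cKO RS. The part of these cells in any difference below was not tested, and fewer cells of a type cannot be told apart from less RNA per cell in such bulk samples.

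The genes of the tRNAs on which the results turn are given first, from RefSeq's annotation of GRCm38.p6, the build named by the study. Of the 67 tRNAs, 66 have a RefSeq gene on a chromosome and SeC-TCA was not matched. Nuclear tRNAs are encoded by 401 such genes, 70 to 84 nt long, and mitochondrial ones by 1 gene each of 59 to 75 nt. Each sequence is that of 1 gene, 5′ to 3′ on the strand of the tRNA and without the CCA tail, and the capitals mark the anticodon. The glycine tRNAs come first, because Gly-CCC is the nuclear entry that differed between the genotypes in both cell types. Gly-GCC, a related tRNA, did not pass in either, and the printed gene of Gly-GCC differs from that of Gly-CCC at 5 of 71 bases. The sequence printed for Gly-CCC is that of 2 of its 6 genes, and the sequence for Gly-GCC that of 8 of 14.

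Gly-CCC (n-TGccc5, chr3:96351167-96351237, minus strand): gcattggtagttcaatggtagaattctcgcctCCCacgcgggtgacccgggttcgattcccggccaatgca

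Gly-GCC (n-TGgcc4, chr1:171044985-171045055, plus strand): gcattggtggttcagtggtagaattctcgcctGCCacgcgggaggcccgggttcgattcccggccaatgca

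Further nuclear tRNAs are shown because their unlabelled fragments were higher in CTRL RS than in CTRL Spc, and, for iMet-CAT and Cys-GCA, lower in cKO RS than in CTRL RS. iMet-CAT is the initiator tRNA, which starts translation at the first AUG codon.

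iMet-CAT (n-TMcat11, chr3:90475860-90475931, minus strand): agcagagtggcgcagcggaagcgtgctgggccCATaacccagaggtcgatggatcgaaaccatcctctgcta

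Cys-GCA (n-TCgca37, chr6:48133937-48134008, plus strand): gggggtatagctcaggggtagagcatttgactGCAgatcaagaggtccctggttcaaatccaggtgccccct

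Ser-GCT (n-TSgct3, chr11:69063042-69063123, minus strand): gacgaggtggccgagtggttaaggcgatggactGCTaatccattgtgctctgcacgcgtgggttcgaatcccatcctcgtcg

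The mitochondrial tRNAs for glycine, glutamate and leucine are shown because their fragments differed between the genotypes in Spc, and mt Ser-GCT because 2 cKO Spc libraries stood apart in it. The last one lacks the D arm of the usual cloverleaf.

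mt Gly-TCC (TrnG, chrM:9391-9458, plus strand): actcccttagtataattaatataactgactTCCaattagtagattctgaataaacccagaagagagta

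mt Glu-TTC (TrnE, chrM:14071-14139, minus strand): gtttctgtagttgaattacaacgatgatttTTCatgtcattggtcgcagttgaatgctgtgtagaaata

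mt Leu-TAA (TrnL1, chrM:2676-2750, plus strand): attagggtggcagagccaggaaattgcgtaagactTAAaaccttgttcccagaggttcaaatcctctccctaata

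mt Ser-GCT (TrnS2, chrM:11613-11671, plus strand): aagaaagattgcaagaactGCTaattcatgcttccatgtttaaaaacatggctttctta

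Many nuclear tRNAs share long runs of bases, and how a read that matches several tRNAs was counted is not stated. Runs of at least 20 nt were shared by 39 of the members in 44 pairs, none of them mitochondrial. The longest was 48 nt between Ser-AGA and Ser-TGA, and Leu-CAA and Leu-CAG shared 40 nt, Val-AAC and Val-CAC 39 nt, Ala-CGC and Ala-TGC 39 nt and Gln-CTG and Gln-TTG 38 nt. The 1 gene of Val-AAC and the 1 gene of Val-CAC that were compared differ at 4 of 73 bases. The genes of these tRNAs have 6 and 7 different sequences. Gly-ACC shared 35 nt with Val-AAC and with Val-CAC. Genes assigned to iMet-CAT and to Met-CAT, which the annotation does not tell apart and which were separated by a sequence feature, shared 32 nt. Gly-CCC and Gly-GCC share 26 nt. The counts of such pairs can hold reads of each other and are uncertain to that extent.

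The unlabelled fragments made up 7.12% to 13.1% of the counts of the tRNA table. The lowest share was 7.12% (95% Wilson interval 6.93% to 7.30%, counting error only) in S20 of CTRL RS and the highest 13.1% (12.8% to 13.3%) in S25 of cKO Spc. Counts at CCA ends made up 59.5% to 68.1% of the table in the Spc and cKO RS libraries and 45.6% to 53.7% in CTRL RS, and 5′ ends 21.2% to 31.9% and 38.6% to 47.2%. In S20 of CTRL RS the 5′ ends were the larger class. CTRL Spc libraries held 9.65%, 8.63%, 8.66%, 8.17% and 9.00% of their tRNA counts in unlabelled fragments (S26 to S30), and cKO Spc libraries 8.66%, 9.32%, 8.67%, 10.8% and 13.1% (S21 to S25). The groups overlapped, with a difference of 1.29 percentage points (8.82% ± 0.550 and 10.1% ± 1.87, SD, n = 5 each; two-sided exact permutation test, p = 0.183). The difference was 0.547 points without S25 and 0.0616 points without S24 and S25. In RS the share was 7.62%, 8.0% and 7.12% in CTRL (S18 to S20) and 9.16%, 12.2% and 7.99% in cKO (S15 to S17), a difference of 2.22 points (exact permutation test, p = 0.2, where the smallest p that 3 against 3 allow is 0.1). It was 0.998 points without S16. Every CTRL RS library lay below every CTRL Spc library, with a difference of the means of -1.25 points (exact permutation test, p = 0.0179, the smallest p that this design allows). cKO RS and cKO Spc overlapped, with a difference of -0.309 points (exact permutation test, p = 0.804). These outcomes depended on the denominator. As a percentage of the counts of the tRNA and miRNA tables together, the unlabelled fragments made up 1.61% to 1.85% in CTRL Spc and 1.98% to 3.95% in cKO Spc, which no longer overlapped (difference 1.04 points, exact permutation test, p = 0.00794). On that scale they made up 1.36% to 1.81% in CTRL RS and 2.28% to 2.66% in cKO RS, also without overlap (difference 0.765 points, exact permutation test, p = 0.1, the smallest possible). CTRL RS and CTRL Spc then overlapped (difference -0.086 points, exact permutation test, p = 0.571). On that scale all tRNA counts together made up 19.1% to 20.5% in CTRL Spc and 22.9% to 30.6% in cKO Spc, also without overlap. In Spc the separation was thus not particular to the unlabelled fragments. All tRNA counts made up 19.2% to 23.3% in CTRL RS and 21.7% to 28.6% in cKO RS, which overlapped.

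The members were uneven in level. Levels are given as CPM of the tRNA table after scaling by the trimmed mean of M values (TMM), called normalized CPM here. They count fragments and were not divided by the length of the tRNA, which differs little between the genes. The 12 entries with the highest CPM as a mean over the 4 groups, in order, were Val-CAC, Lys-CTT, Val-AAC, Gln-CTG, Asp-GTC, Gly-GCC, Gln-TTG, Arg-CCT, Lys-TTT, Glu-CTC, Met-CAT and Leu-TAA, and they held 50.7% to 65.0% of the unlabelled counts of a library. Val-CAC ranged from 5740 to 6597 in CTRL Spc, 5316 to 8149 in cKO Spc, 8087 to 9819 in CTRL RS and 5303 to 12191 in cKO RS. The order differed between the groups, since Gln-CTG had a mean of 8751 in CTRL RS beside 8744 for Val-CAC, and the cKO Spc level of Asp-GTC was raised by S24 and S25. The range of Val-CAC overlapped with that of Lys-CTT, the next in order, in all groups but CTRL RS, where Lys-CTT lay between 5609 and 7762. Valine tRNAs together made up 13.8% to 23.3% of the unlabelled counts and lysine tRNAs 9.57% to 12.9%. The 67 entries held 99.3% to 99.9% of all unlabelled counts.

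**Figure D1:**
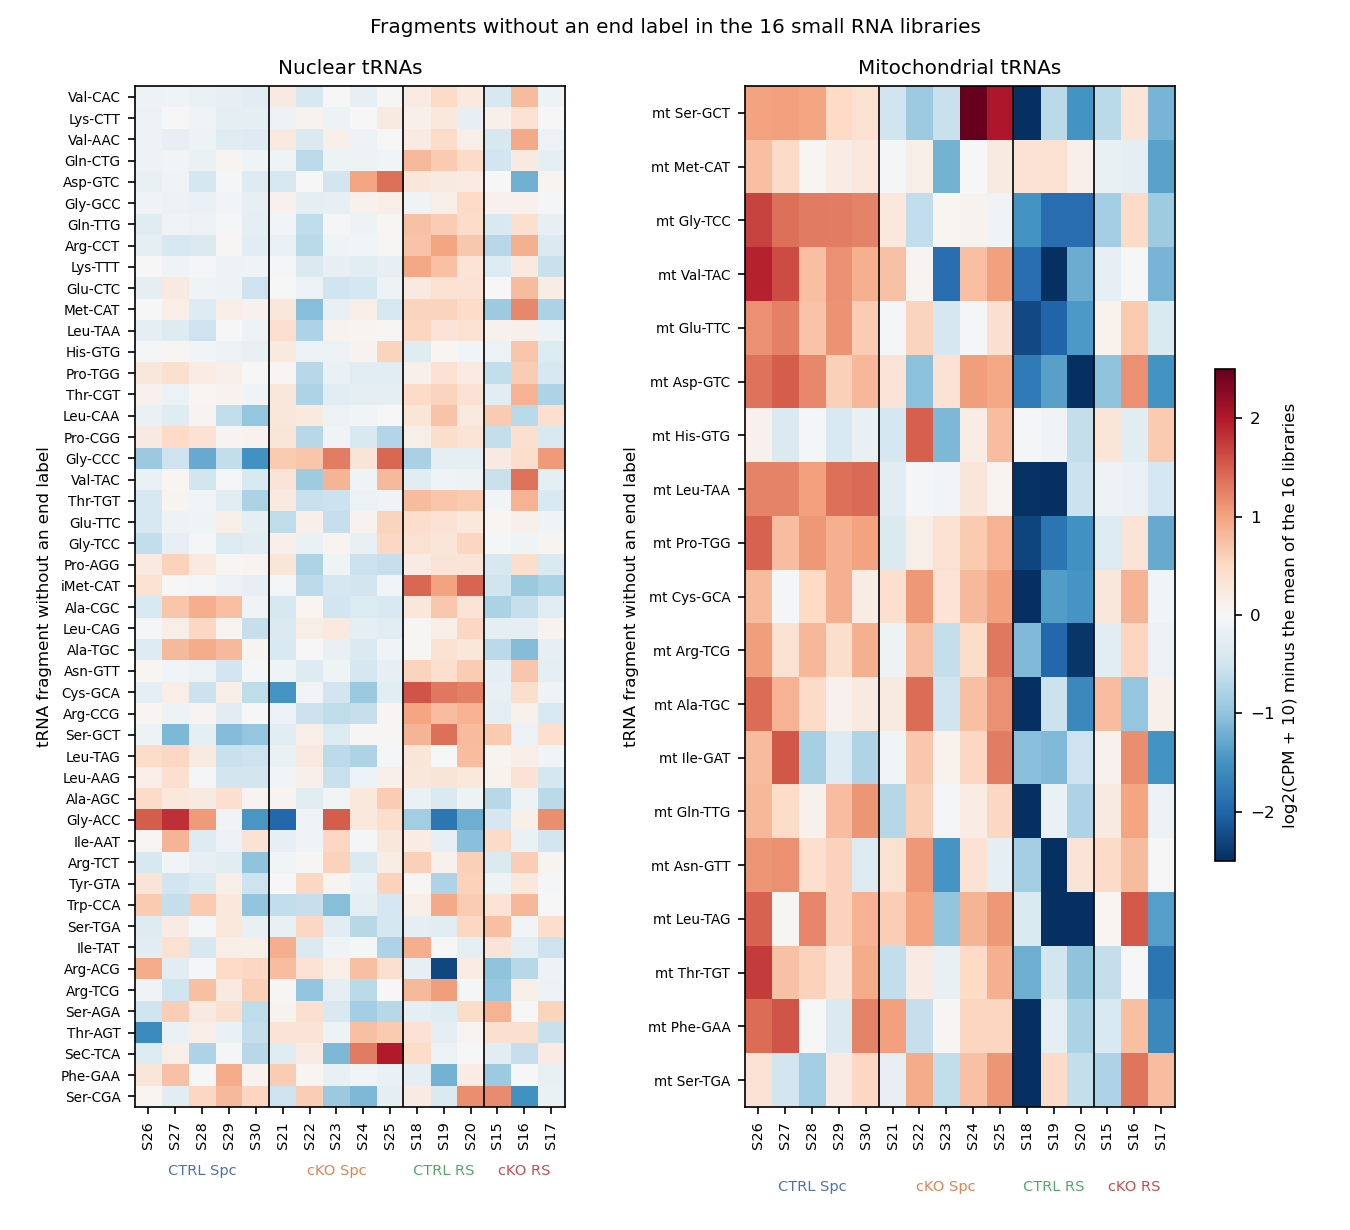
Level of each of the 67 entries (vertical axis, nuclear tRNAs left, mitochondrial tRNAs right, each ordered by level) in the 16 libraries (horizontal axis, by group). Colour gives log2(normalized CPM + 10) minus the mean of that entry over the 16 libraries and stops at 2.5 in either direction. Most mitochondrial entries are above their mean in CTRL Spc and below it in CTRL RS.

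The tRNAs differed widely in how much of their own count carried no end label. For Arg-CCT the unlabelled part was 93.4% ± 0.780 of all its counts in CTRL Spc and for Leu-TAA 84.8% ± 2.78 (SD, n = 5), whereas it was 1.24% ± 0.249 for Ala-CGC and 2.82% ± 0.647 for Glu-CTC. Among the mitochondrial tRNAs it was 66.2% ± 2.64 for mt Gly-TCC, 52.0% ± 4.42 for mt Leu-TAA and 46.9% ± 5.92 for mt Glu-TTC in the same group. For some tRNAs these bare entries were thus the main product counted, and for others a small remainder.

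In Spc the comparison of cKO with CTRL asks whether the loss of SMG6 goes with a different set of tRNA fragments in meiotic cells. Gly-CCC rose and the mitochondrial mt Gly-TCC, mt Leu-TAA and mt Glu-TTC fell, 4 of the 67 members, at an adjusted p of at most 0.05 in edgeR's quasi-likelihood test (two-sided, Benjamini-Hochberg over all 185 entries). Of all entries tested, 10.3% passed, 3.78% higher and 6.49% lower in cKO. The share of the members was thus no larger than that of the table. Before adjustment, 22 of the 67 members, the 4 included, and 59 of all 185 entries had a p of at most 0.05.

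Gly-CCC fragments stood at 688, 908, 538, 856 and 453 normalized CPM in CTRL Spc (S26 to S30). In cKO Spc they stood at 2058, 2119, 3175, 1643 and 3575 (S21 to S25), so that the lowest cKO library was above the highest CTRL library. The log2 fold change was 2.04 (SE 0.245, edgeR adjusted p = 6.35e-05), and it ranged from 1.87 to 2.16 when single libraries were omitted. In counts that need no scaling, unlabelled fragments were 4.56%, 5.89%, 4.17%, 5.91% and 3.64% of all Gly-CCC counts in CTRL Spc and 15.1%, 17.7%, 19.3%, 11.4% and 23.0% in cKO Spc. The other ends of this tRNA moved less, since its 5′ end rose by a log2 fold change of 0.70 (SE 0.199, edgeR adjusted p = 0.0304) and its CCA end had a value of -0.12 (SE 0.120, edgeR adjusted p = 0.504). Gly-GCC, the related tRNA shown beside it, did not pass, with a log2 fold change of 0.27 (95% interval 0.0221 to 0.517, edgeR adjusted p = 0.155).

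mt Gly-TCC fragments were at 2751, 2192, 2090, 2072 and 1991 normalized CPM in CTRL Spc and at 1015, 549, 871, 894 and 793 in cKO Spc. All 5 cKO libraries lay below all 5 CTRL libraries, with a log2 fold change of -1.31 (SE 0.180, edgeR adjusted p = 0.00017). mt Leu-TAA was at 967, 974, 830, 1065 and 1099 in CTRL and at 329, 397, 387, 504 and 425 in cKO, again without overlap (log2 fold change -1.12, SE 0.191, edgeR adjusted p = 0.00152). mt Glu-TTC was at 1462, 1572, 1076, 1426 and 1016 in CTRL and at 631, 965, 484, 634 and 862 in cKO. Its groups also did not overlap, but its log2 fold change of -0.69 (SE 0.206, edgeR adjusted p = 0.04) no longer passed without S21, S23, S24, S26, S27 or S29, where the adjusted p was 0.0595, 0.0619, 0.0797, 0.0823, 0.109 and 0.0878. Among the other ends, the CCA end of mt Leu-TAA also fell (log2 fold change -0.84, edgeR adjusted p = 0.04), as did the sparse 3′ end of mt Gly-TCC (-1.58, edgeR adjusted p = 0.0069), whereas the CCA ends of mt Gly-TCC and mt Glu-TTC had log2 fold changes of 0.26 and 0.06 and did not pass.

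The other 16 mitochondrial entries did not pass in Spc, and the median log2 fold change of the 19 was -0.31, beside 0.04 for the 48 nuclear entries and 0.08 for all 185. mt Ser-GCT stood apart in 2 libraries, with 8115 and 5713 normalized CPM in S24 and S25 of cKO Spc against 988, 747 and 949 in the other cKO libraries and 2837, 2878, 2797, 1996 and 1840 in CTRL. The nuclear Asp-GTC, which reads aspartate codons, was high in the same libraries, at 8700 and 11484 against 3320, 4351 and 3175, with 3869, 4118, 3227, 4221 and 3529 in CTRL. Neither passed (log2 fold change 0.59, edgeR adjusted p = 0.482, and 0.87, edgeR adjusted p = 0.0735). Without S24 and S25, chosen after these values were seen, 5 members passed in Spc, mt Ser-GCT and mt Asp-GTC among them, and mt Glu-TTC did not (adjusted p = 0.0612).

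Summed over anticodons, 4 of 39 sums per amino acid of unlabelled fragments passed, beside 11.9% of all 109 sums of the table. Nuclear glycine rose (log2 fold change 0.69, SE 0.141, edgeR adjusted p = 0.0112), with 6.26% to 6.75% of the unlabelled counts in CTRL Spc and 7.69% to 10.7% in cKO Spc, and the mt Gly, mt Leu and mt Glu sums fell by 1.25, 0.88 and 0.65 on the log2 scale.

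Scaling decided much of the split in Spc. Called entries were higher in cKO in 36.8% of the calls with TMM, in 41.2% with library size alone and in 97.5% with the scaling factors of the miRNA table, which raised the median log2 fold change of all entries from 0.08 to 0.66. Under the last setting 23 members were higher and 1 lower, the median of the mitochondrial entries turned to 0.31, and mt Leu-TAA (-0.53, adjusted p = 0.163) and mt Glu-TTC (-0.08) did not pass. Gly-CCC (2.62) and mt Gly-TCC (-0.75) passed in the same direction under all 3 scalings.

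**Figure D2:**
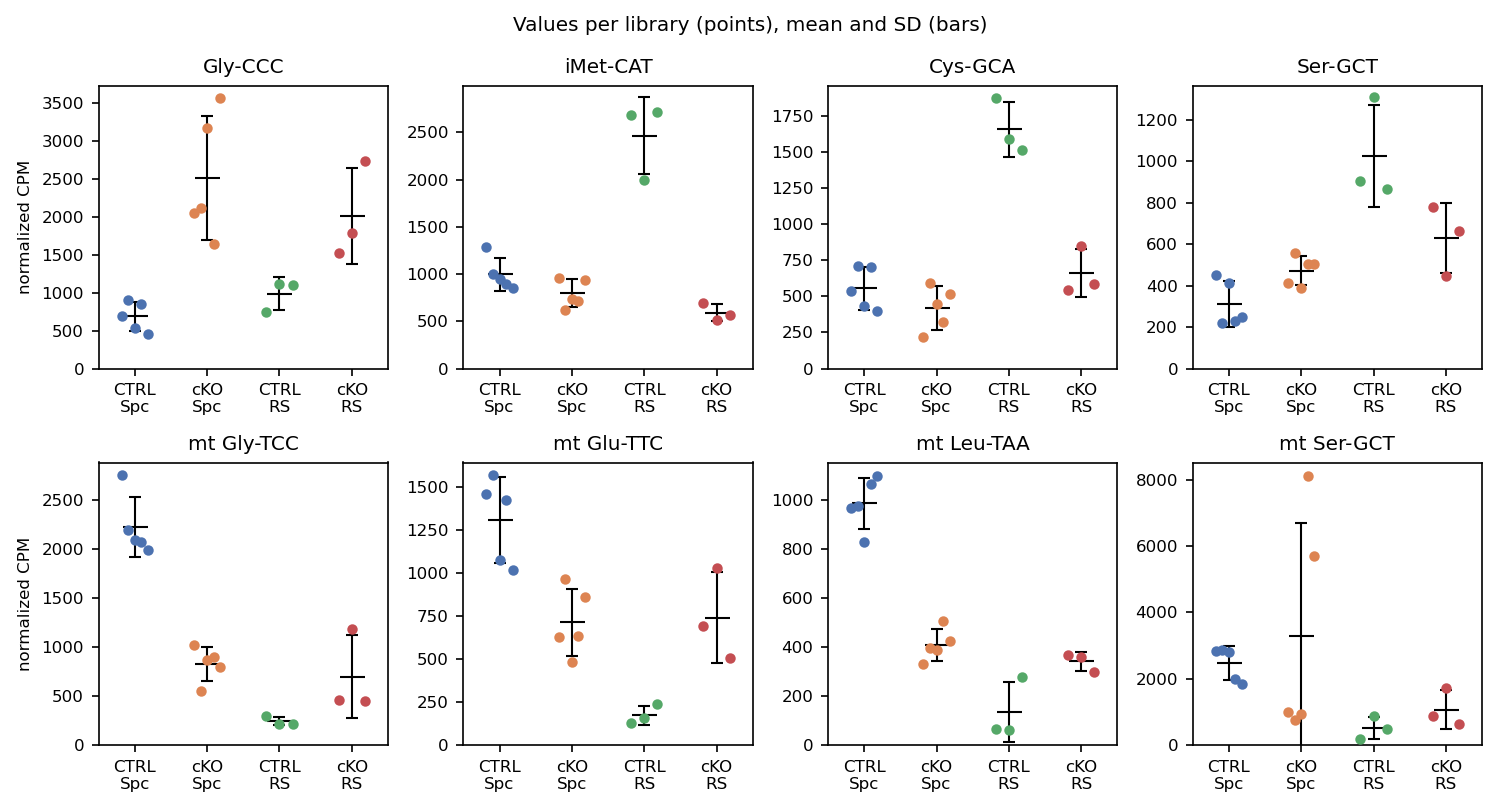
Normalized CPM (vertical axes, from 0) of 8 unlabelled tRNA fragments in CTRL Spc, cKO Spc, CTRL RS and cKO RS. Points are libraries, long ticks the mean and bars the SD. Gly-CCC is above the CTRL libraries in all cKO libraries of both cell types, and mt Gly-TCC, mt Glu-TTC and mt Leu-TAA are highest in CTRL Spc and lowest in CTRL RS.

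In RS the same comparison concerns cells that hold a chromatoid body, the cytoplasmic granule of RNA and protein that the study is about. Here 7 members rose and 6 fell in cKO, 13 of 67, beside 22.2% of all entries, 10.8% higher and 11.4% lower. Those that rose were 5 mitochondrial entries and the entries Gly-CCC and Gly-ACC. Of these, Gly-ACC, mt Cys-GCA and mt Asp-GTC had fewer than 10 counts in every CTRL RS library. They passed the count filter through the other groups, so their rise is a description. The 6 that fell were all nuclear, and among them the initiator iMet-CAT changed most. Groups did not overlap in 24 members, 12 of them called, and in 39.5% of all entries.

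iMet-CAT fragments were at 2685, 1995 and 2716 normalized CPM in CTRL RS (S18 to S20) and at 692, 514 and 567 in cKO RS (S15 to S17). Every cKO library was below every CTRL library, with a log2 fold change of -2.05 (SE 0.293, edgeR adjusted p = 3.28e-05) that ranged from -2.18 to -1.89 when single libraries were omitted. Its 5′ end and its CCA end fell as well, by 1.72 and 2.06 on the log2 scale (edgeR adjusted p = 0.00017 and 8.61e-05), so the unlabelled part of all iMet-CAT counts was 32.4% ± 2.12 in CTRL and 30.8% ± 6.90 in cKO (SD, n = 3). In Spc the 5′ end and the CCA end fell too, by 0.62 and 1.05 on the log2 scale (edgeR adjusted p = 0.0175 and 0.00572), while the unlabelled entry did not pass (-0.19, edgeR adjusted p = 0.504).

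Cys-GCA, a tRNA with 57 genes in RefSeq, was at 1876, 1590 and 1516 normalized CPM in CTRL RS and at 547, 850 and 585 in cKO RS. The groups lay apart, with a log2 fold change of -1.35 (SE 0.297, edgeR adjusted p = 0.00237), while the 5′ end (-0.55) and the CCA end (0.20) of Cys-GCA did not pass. The other nuclear members that fell were Arg-CCG (-1.06, SE 0.290, edgeR adjusted p = 0.0115), Ala-CGC (-0.98, SE 0.297), Lys-TTT (-0.89, SE 0.285) and Gln-CTG (-0.79, SE 0.259). Gln-CTG, among the highest in level, went from 9801, 8697 and 7755 in CTRL RS to 4008, 6531 and 4678 in cKO RS. These calls were less firm than that of iMet-CAT. Gln-CTG and Lys-TTT no longer passed without S15, S17, S18, S19 or S20, Ala-CGC without S15 or S19, and Arg-CCG without S15 or S18. With library size in place of TMM, iMet-CAT was the only member that still fell, and Cys-GCA had a log2 fold change of -0.72 with an adjusted p of 0.0571.

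Gly-CCC was at 744, 1122 and 1102 normalized CPM in CTRL RS and at 1530, 1789 and 2735 in cKO RS, without overlap. Its log2 fold change was 1.02 (SE 0.312, edgeR adjusted p = 0.021), but it did not pass without S17 (0.73, adjusted p = 0.106), S18 (0.86, adjusted p = 0.146) or S20 (1.11, adjusted p = 0.0847). The unlabelled part of all Gly-CCC counts was 2.52%, 4.13% and 4.09% in CTRL RS and 11.1%, 16.2% and 15.1% in cKO RS, higher in every cKO library. In RS this share had a second component, because the CCA end of Gly-CCC fell (log2 fold change -1.39, SE 0.233, edgeR adjusted p = 0.00017), as did that of Gly-GCC (-1.36), whose CCA ends cannot be told apart where the sequences are shared. Gly-ACC, whose entry can hold reads of the valine tRNAs with which it shares 35 nt and which had far more counts, rested on few counts, 4, 2 and 5 in CTRL RS and 16, 12 and 62 in cKO RS (log2 fold change 1.81, SE 0.553, edgeR adjusted p = 0.021), and it did not pass without S17, S19 or S20. As stated above, the value of Gly-ACC is a description.

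**Figure D3:**
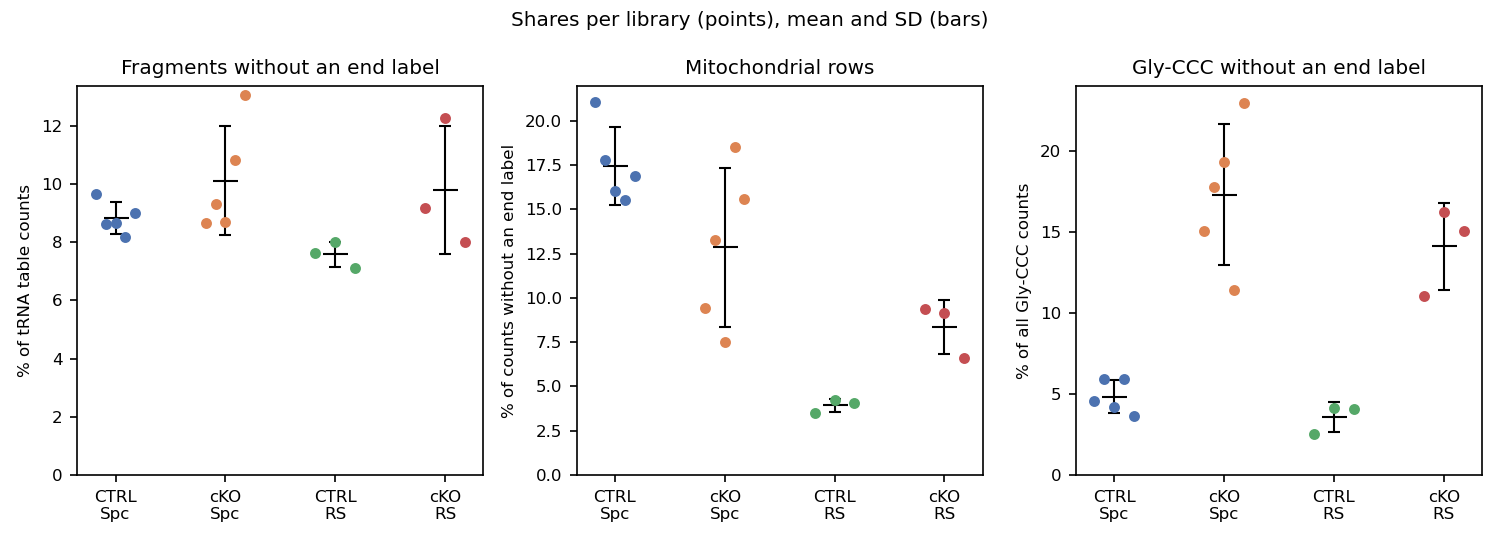
Share in each library (points) with the mean and SD (bars) in the 4 groups, all axes from 0. Left, unlabelled fragments as a percentage of all tRNA table counts. Middle, mitochondrial entries as a percentage of the unlabelled counts, 3.5% to 4.23% in CTRL RS. Right, unlabelled fragments as a percentage of all Gly-CCC counts, 11.1% or more in every cKO library and 5.91% or less in every CTRL library.

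The mitochondrial fragments were few in CTRL RS and higher in cKO RS. They made up 3.5%, 4.23% and 4.07% of the unlabelled counts in CTRL RS (S18 to S20) and 9.37%, 9.14% and 6.62% in cKO RS (S15 to S17), all cKO libraries above all CTRL libraries. mt Glu-TTC had 4, 5 and 12 counts in CTRL RS and 62, 46 and 56 in cKO RS, or 129, 156 and 236 against 692, 1029 and 504 normalized CPM (log2 fold change 1.99, SE 0.402, edgeR adjusted p = 0.00109). mt Gly-TCC had 9, 7 and 11 counts in CTRL RS and 41, 53 and 50 in cKO RS (log2 fold change 1.47, SE 0.433, edgeR adjusted p = 0.0183, and adjusted p = 0.123 without S20). Both were higher in every cKO library.

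The other mitochondrial members called in RS were mt Cys-GCA (2.37, SE 0.687), mt Asp-GTC (1.87, SE 0.654) and mt Val-TAC (1.35, SE 0.425), with edgeR adjusted p of 0.0172, 0.046 and 0.0257. mt Cys-GCA no longer passed without S18 or S20, mt Asp-GTC without S16 or S20 and mt Val-TAC without S19. The CCA ends of mt Glu-TTC (log2 fold change 1.29, edgeR adjusted p = 0.0148) and mt Val-TAC (1.44, edgeR adjusted p = 0.0039) also rose in cKO RS, while those of mt Gly-TCC (0.71) and mt Asp-GTC (0.62) did not pass. In 1 fit over all 16 libraries mt Asp-GTC, mt Val-TAC and Gly-ACC did not pass either. mt Cys-GCA had 0, 2 and 3 counts in CTRL RS against 20, 15 and 19 in cKO RS. mt Asp-GTC overlapped between the groups in normalized CPM, at 162, 218 and 78.7 in CTRL RS and 279, 1275 and 198 in cKO RS, and without S16 its log2 fold change was 0.81 with an adjusted p of 0.21. The median log2 fold change of the 19 mitochondrial entries was 1.35, with 18 above 0, beside -0.35 for the 48 nuclear ones and -0.02 for all entries. Since 12 of the 19 had fewer than 10 counts in every CTRL RS library, they passed the count filter through the other groups, and these counts are a description. mt Met-CAT, the single mitochondrial entry below 0, was at 1714, 1746 and 1456 in CTRL RS and 1172, 1118 and 522 in cKO RS and did not pass (-0.82, edgeR adjusted p = 0.079).

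Of the sums per amino acid, 12 of 39 passed in RS, beside 31.2% of all sums. The initiator, cysteine, alanine and glutamine sums fell, and mt Arg, mt Asp, mt Cys, mt Glu, mt Gly, mt Leu, mt Pro and mt Val rose, by 1.32 to 2.35 on the log2 scale. The sums of mt Arg, mt Asp, mt Cys and mt Pro hold a single entry each, with fewer than 10 counts in every CTRL RS library. Those entries passed the count filter through the other groups, so these sums are a description. As entries, mt Arg-TCG (edgeR adjusted p = 0.0614) and mt Pro-TGG (edgeR adjusted p = 0.0673) did not pass. The direction of the nuclear entries depended on the scaling. The TMM factors were 0.699 to 0.720 in the CTRL RS libraries and 0.916 to 1.28 in the others. With library size alone the median of all entries rose to 0.59, the nuclear median turned from -0.35 to 0.29, 17 members were higher and 1 lower, and the share of higher calls over all entries went from 48.8% to 85.0%. With the factors of the miRNA table, which were 0.706 to 0.729 in CTRL RS, that share was 66.7%, with 10 members higher and 2 lower. The mitochondrial median stayed above 0, at 1.99 and 1.65.

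One library weighed on the number of calls. Without S16, whose erythroid and leukocyte miRNAs were the lowest of cKO RS, 27 members passed, 12 of the 13 among them, with 9 higher and 18 lower. Without S20 7 passed, 6 of them shared. Without the 3 libraries highest in erythroid miRNAs, S15, S17 and S22, which leaves 1 cKO library in RS whose spread is taken to be that of CTRL RS, 24 passed, 17 of them higher, and 9 were shared with all libraries in use. The part of the markers in this was not tested.

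**Figure D4:**
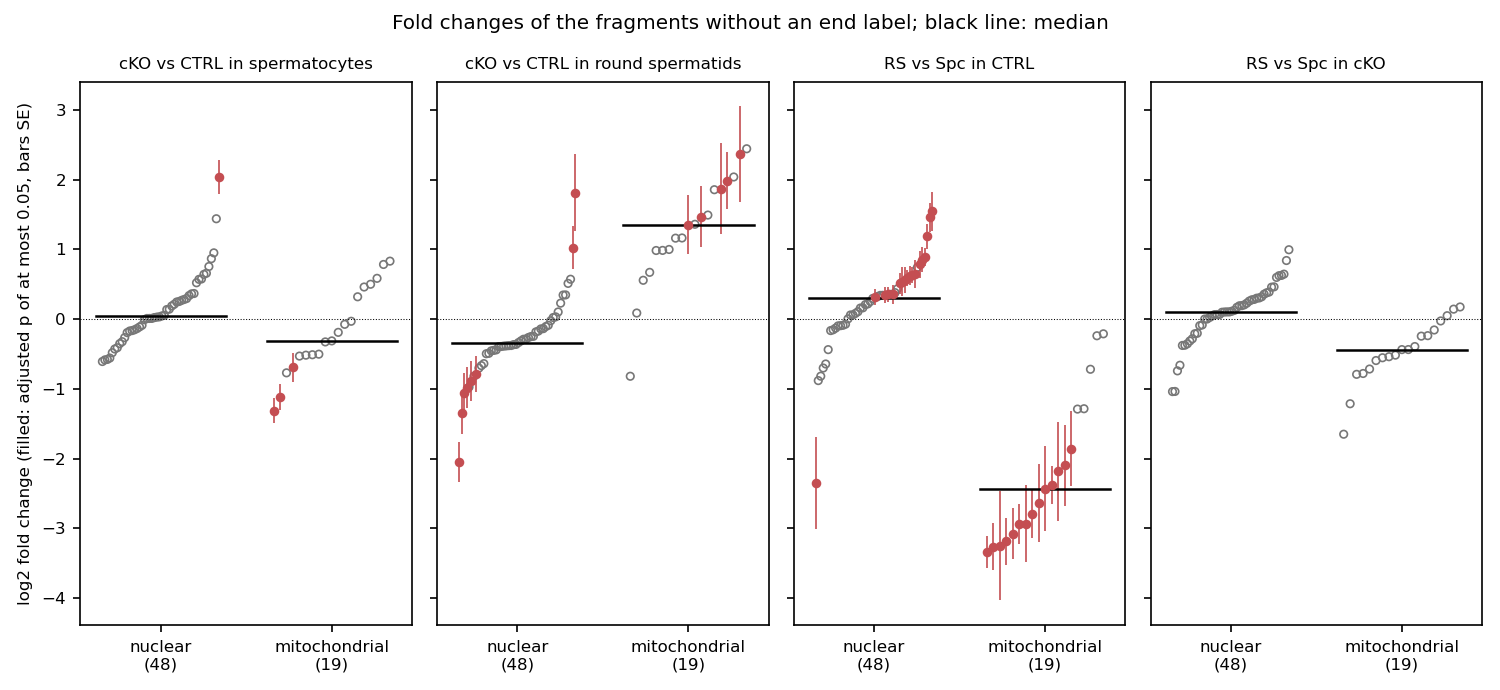
Log2 fold change (vertical axis) of the 48 nuclear and 19 mitochondrial entries in the 4 comparisons, each entry as a point in order of size. Filled points passed an adjusted p of 0.05 and carry bars of 1 SE, and black lines are medians. Mitochondrial entries lie below 0 in RS against Spc of CTRL, with a median of -2.43, and none passed in RS against Spc of cKO.

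The step from Spc to RS was then compared within each genotype. In CTRL, 14 of 19 mitochondrial members fell from Spc to RS, and of the 48 nuclear members 17 rose and 1 fell with TMM scaling, whereas 5 rose and 11 fell with library size. The 17 higher and 15 lower members stand beside 46.5% of all entries, 22.2% higher and 24.3% lower. The nuclear one that fell was Gly-ACC, whose groups overlapped, at 82.4 to 886 normalized CPM in CTRL Spc and 62.3 to 129 in CTRL RS. With 4, 2 and 5 counts in CTRL RS it passed the count filter through the other groups, so its value is a description. Groups did not overlap in 35 members, 30 of them called, and in 49.7% of all entries. Mitochondrial entries made up 15.5% to 21.1% of the unlabelled counts in CTRL Spc and 3.5% to 4.23% in CTRL RS.

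The mt Gly-TCC fragments, at 1991 to 2751 normalized CPM in CTRL Spc, stood at 291, 218 and 217 in CTRL RS (log2 fold change -3.33, SE 0.230, edgeR adjusted p = 3.75e-10). mt Asp-GTC (-3.26, SE 0.339), mt Val-TAC (-3.19, SE 0.334) and mt Pro-TGG (-3.08, SE 0.366) fell by nearly as much, each without overlap. mt Asp-GTC, at 5, 7 and 4 counts in CTRL RS, and mt Pro-TGG, at 2, 3 and 6, passed the count filter through the other groups. The values of mt Asp-GTC and mt Pro-TGG are therefore a description. The CCA ends of several of these tRNAs fell as well, by 1.90 on the log2 scale for mt Gly-TCC, 1.82 for mt Val-TAC and 2.33 for mt Pro-TGG, and by 1.60 for mt Glu-TTC and 2.58 for mt Leu-TAA (edgeR adjusted p at most 0.000215), while that of mt Asp-GTC did not pass (-0.90, edgeR adjusted p = 0.0628). mt Ser-GCT went from 1840 to 2878 in CTRL Spc to 194, 873 and 492 in CTRL RS, a log2 fold change of -2.37 (SE 0.275, edgeR adjusted p = 5.14e-07). Not every mitochondrial tRNA followed. mt Met-CAT was at 2257, 1860, 1383, 1521 and 1607 in CTRL Spc and 1714, 1746 and 1456 in CTRL RS, with a log2 fold change of -0.21 (95% interval -0.554 to 0.133, edgeR adjusted p = 0.34), and mt His-GTG had a value of -0.24 (95% interval -0.758 to 0.282, edgeR adjusted p = 0.491). Both intervals lie above the median of the 19 entries, -2.43.

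The mitochondrial genome is transcribed on both strands. Of 12 tested tRNAs on the plus strand 9 fell, with a median of -2.58, and of 7 on the minus strand 5 fell, with a median of -2.43. As above, 12 of the 19 had fewer than 10 counts in every CTRL RS library, so that such an entry passed the filter only where another group was high, and 7 had a library at 0. The counts and medians by strand, and the number of mitochondrial entries that fell, are therefore a description.

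Among the nuclear members, Ser-GCT went from 451, 221, 415, 228 and 247 normalized CPM in CTRL Spc to 906, 1309 and 866 in CTRL RS, all above the Spc libraries (log2 fold change 1.55, SE 0.280, edgeR adjusted p = 0.000116). Cys-GCA, at 398 to 708 in CTRL Spc, was at 1516 to 1876 in CTRL RS (1.46, SE 0.210, edgeR adjusted p = 6.87e-06). iMet-CAT, at 851 to 1290 in CTRL Spc, was at 1995 to 2716 in CTRL RS (1.19, SE 0.179, edgeR adjusted p = 1.28e-05). The elongator Met-CAT, which reads AUG codons inside a message, rose by less (0.36, SE 0.135, edgeR adjusted p = 0.0347). The others that rose were Arg-CCT (0.89), Thr-TGT, Arg-CCG, Leu-CAA, Gln-TTG, Lys-TTT, Gln-CTG, Gly-TCC, Asn-GTT, Leu-TAA, Val-CAC, Val-AAC and Asp-GTC (0.31). The smaller of these calls were not firm. Met-CAT did not pass without S18, S19, S20 or S28, Asn-GTT without S18, S20, S27 or S29, and Asp-GTC without S18, S20, S28 or S30. Leu-CAA, Val-AAC and Val-CAC did not pass without S19, Gly-TCC without S20, and the mitochondrial mt Phe-GAA, which fell with overlapping groups, without S18 or S20. DESeq2 did not call Met-CAT and Asn-GTT, and Met-CAT, Asp-GTC and Val-AAC were not called without a count filter or, with Val-CAC, in 1 fit over all libraries. Without a count filter Asn-GTT was not called either. With library size, the nuclear members that still rose were Ser-GCT, Cys-GCA, iMet-CAT, Arg-CCT and Thr-TGT. Gly-CCC did not pass (0.44, 95% interval -0.0335 to 0.905, edgeR adjusted p = 0.134).

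Summed per amino acid, 27 of 39 sums passed, 14 higher and 13 lower, beside 59.6% of all sums. The nuclear sums of Cys (1.57), iMet (1.29), Ser (0.92), Arg (0.88) and Gln (0.72) rose most, and 13 mitochondrial sums fell. Of the latter, mt Ala, mt Arg, mt Asp, mt Cys, mt Gln, mt Phe, mt Pro and mt Thr rest on a single entry each. These entries had fewer than 10 counts in every CTRL RS library, so their sums are a description. With library size alone the median of all entries went from -0.09 to -0.46, 5 members were higher and 28 lower, the nuclear median turned from 0.31 to -0.06, and the share of higher calls over all entries went from 47.7% to 16.7%. With the factors of the miRNA table it was 60.8%, with 23 members higher and 15 lower. The mitochondrial median stayed at -2.79 and -2.17.

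In cKO no member passed between RS and Spc, beside 0% of all 185 entries and 0% of all sums. At an unadjusted p of at most 0.05 there were 4 members, Arg-ACG, Glu-CTC, Trp-CCA and Ser-AGA, and 17 of all entries, and DESeq2 also called none. mt Gly-TCC was at 1015, 549, 871, 894 and 793 normalized CPM in cKO Spc and at 458, 1186 and 450 in cKO RS (log2 fold change -0.24, 95% interval -0.935 to 0.462, edgeR adjusted p = 0.858). mt Glu-TTC had a value of 0.05 (95% interval -0.554 to 0.653, edgeR adjusted p = 0.970). Both intervals exclude the decrease of the same fragment in CTRL. iMet-CAT had a log2 fold change of -0.37 (95% interval -0.885 to 0.138, edgeR adjusted p = 0.56) and Cys-GCA 0.62 (95% interval -0.00174 to 1.25, edgeR adjusted p = 0.492). The median of the mitochondrial entries was -0.44 and that of the nuclear ones 0.11.

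Whether the effect of the genotype differs between RS and Spc was tested as the interaction over all 16 libraries, which is the log2 fold change of cKO against CTRL in RS minus that in Spc. It passed for 9 of the 67 members, 7 mitochondrial ones with a positive value and iMet-CAT and Ser-GCT with a negative one, beside 14.1% of all entries. mt Asp-GTC, mt Cys-GCA and mt Pro-TGG had fewer than 10 counts in every CTRL RS library and passed the filter through groups where they were higher, so their values are a description. mt Gly-TCC (2.91, SE 0.450, edgeR adjusted p = 0.000103) and mt Glu-TTC (2.82, SE 0.443, edgeR adjusted p = 0.000103) were lower in cKO in Spc and higher in cKO in RS. mt Leu-TAA followed (2.40, SE 0.451, edgeR adjusted p = 0.000512). In RS it was at 64.7, 62.3 and 276 normalized CPM in CTRL and 368, 358 and 297 in cKO, but this difference alone did not pass (1.16, edgeR adjusted p = 0.0984).

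For iMet-CAT the interaction was -1.72 (SE 0.310, edgeR adjusted p = 0.000344). Its fragments were at 1290, 996, 953, 894 and 851 normalized CPM in CTRL Spc and 960, 624, 736, 716 and 943 in cKO Spc, where the groups overlapped, while they lay apart in RS. For Gly-CCC the interaction was -0.86 (SE 0.410, edgeR adjusted p = 0.149), so the difference between its 2 fold changes did not pass. Of the sums per amino acid 8 of 39 passed (iMet, mt Asp, mt Cys, mt Glu, mt Gly, mt Leu, mt Pro and mt Val), beside 21.1% of all sums. The mt Asp, mt Cys and mt Pro sums hold only the entries named above as a description and are also a description. The interaction, the comparison of the genotypes in RS and that of RS with Spc in CTRL all use the same 3 CTRL RS libraries. The low mitochondrial values of those libraries and, with TMM scaling, their high nuclear values enter all 3 comparisons, which are not independent. The gonadal miR-202, given above, had the same order of groups as mt Gly-TCC in Spc and in RS, and its part was not tested. Among the interactions called over all entries, the share of positive ones was 50.0% with TMM. It was 81.8% with library size, where 10 called members were positive and 1 negative, and 25.9% with the factors of the miRNA table, where 3 were positive and 6 negative.

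The lists of tRNAs named for a modification, a structure or a use are small, and their counts are read beside the calls over all entries, 10.3% in Spc, 22.2% in RS and 46.5% between RS and Spc of CTRL. Of the 8 listed tRNAs whose first anticodon base A is edited to inosine, a list without Gly-ACC, none passed in either cell type, with median log2 fold changes of 0.10 in Spc and -0.10 in RS. None of the 4 tRNAs that carry queuosine at that base passed (medians 0.47 and -0.26), and none of the 3 substrates of the cytosine methyltransferase TRDMT1 (Asp-GTC, Gly-GCC and Val-AAC, medians 0.34 and -0.14). Of the 8 tRNAs known for 5′ fragments in sperm, Gly-CCC passed in both cell types and no other in either (medians 0.29 and 0.00). None of the 10 measured tRNAs with a long variable arm, those for leucine, serine and selenocysteine, passed (medians 0.08 and -0.27). Of the 2 methionine tRNAs, iMet-CAT fell in RS and neither passed in Spc. Beside them the medians of all 185 entries were 0.08 and -0.02. From Spc to RS in CTRL, the members that rose were Val-AAC of the inosine list, Asp-GTC and Asn-GTT of the queuosine list, Asp-GTC and Val-AAC of the TRDMT1 list, Val-CAC and Val-AAC of the sperm list, Leu-CAA, Leu-TAA and Ser-GCT of the long variable arm list, and both methionine tRNAs. Of these, Ser-GCT and iMet-CAT still rose with library size in place of TMM. In cKO no list had a call for this step.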

How the data were processed

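Small RNA libraries of the 4 groups were analysed (5 CTRL Spc, 5 cKO Spc, 3 CTRL RS, 3 cKO RS), and each column was assigned to a group by its label. Long RNA counts were used for Smg6 alone. The authors mapped reads with SPORTS to rRNA, miRNA and GtRNAdb tRNA sequences of mm10 and deposited merged tables of whole-number counts, unnormalized. Whether the molecular identifiers of the kit were used to merge reads is not given in the sources used here. Blank cells (841 in the tRNA table) were read as 0. Entries that reached 10 counts in 3 or more of the 16 libraries were tested with the quasi-likelihood test of edgeR 4.0.16 (R 4.3.3) after TMM scaling (two-sided; p adjusted over all 185 entries by Benjamini and Hochberg), with each comparison on its own libraries and the interaction on all 16. A call had an adjusted p of at most 0.05. SE is the size of the log2 fold change divided by the square root of F. Sums per amino acid were tested in the same way over 109 sums. Shares were compared by exact permutation tests over all regroupings of the libraries. Wilson intervals of single shares (scipy 1.17.1) hold counting error alone. The fits were tested on simulated data.

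The depth of 37315 to 105677 tRNA counts per library limits the mitochondrial entries most, which had 0 to 74 counts in a CTRL RS library. No 2 libraries of a group were alike within sampling noise (chi-square per degree of freedom 2.22 to 34.5). The named entries are the 12 highest in level, up to 4 called entries at either end of the log2 fold changes of a comparison (mean normalized count 10 or more), Gly-CCC, members of the fixed lists and entries next to the count filter. Other entries with values were named after their values were seen. The members and lists were chosen with earlier results of these data known. The alternatives were DESeq2 1.42.0, library size, the factors of the miRNA table, no count filter, 1 fit over all libraries, other denominators and each library left out. Leaving out S15, S17 and S22, or S24 and S25, was chosen after seeing the data. Other columns and tables of the series were not used here.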

Additional observations from a re-analysis of the deposited data

Results flagged for a closer look

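In 4 of 54 groups of 5 libraries 1 library lay far from the others (Dixon's test at 95%), where chance gives about 1 in 20. In cKO Spc, library S22 stood at 3547 normalized CPM for Gln-CTG (others 5072 to 5311), at 2355 for Gln-TTG (others 3366 to 3770) and at 908 for Ala-CGC (others 619 to 683), and it also had the highest erythroid miRNA level of the 16 libraries (3051 CPM of the miRNA table). The part of the latter was not tested. In CTRL Spc, library S26 stood at 2751 for mt Gly-TCC (others 1991 to 2192). Without S26 the log2 fold change of mt Gly-TCC in Spc stayed past the threshold.

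The effect of the genotype differed between RS and Spc, by edgeR's interaction test, for 9 members. The log2 interaction was 2.91 (SE 0.450, adjusted p = 0.000103) for mt Gly-TCC, 2.82 (SE 0.443, adjusted p = 0.000103) for mt Glu-TTC and 2.40 (SE 0.451, adjusted p = 0.000512) for mt Leu-TAA. It was 2.12 (SE 0.563, adjusted p = 0.0118) for mt Pro-TGG, 2.26 (SE 0.683, adjusted p = 0.0261) for mt Val-TAC, 2.52 (SE 0.810, adjusted p = 0.0384) for mt Asp-GTC and 2.04 (SE 0.665, adjusted p = 0.0413) for mt Cys-GCA. It was negative for iMet-CAT at -1.72 (SE 0.310, adjusted p = 0.000344) and for Ser-GCT at -1.28 (SE 0.384, adjusted p = 0.0261). mt Asp-GTC no longer passed without S16, S18, S19, S20, S26, S27 or S28, and Ser-GCT no longer passed without S19, with library size or without S24 and S25. mt Cys-GCA no longer passed in 11 of the 16 fits without 1 library and mt Val-TAC without S15, S18, S19 or S26. With the factors of the miRNA table mt Asp-GTC, mt Cys-GCA, mt Pro-TGG and mt Val-TAC did not pass, and with DESeq2 mt Cys-GCA did not. As mt Asp-GTC, mt Cys-GCA and mt Pro-TGG had fewer than 10 counts in every CTRL RS library, they passed the count filter through the other groups, and their values are a description. The gonadal miR-202 was, like mt Gly-TCC, lower in cKO than in CTRL in Spc and higher in RS, with medians of 14343 in CTRL Spc, 3211 in cKO Spc, 1157 in CTRL RS and 4519 in cKO RS, and its part was not tested.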

How the results depend on the processing

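No paired analysis was possible because the columns carry no replicate numbers, and the alternative with spermatocyte libraries 1 to 3 was not run for the same reason. Of the values that answer a comparison, 215 kept their direction and side of the threshold or stayed within 1.5 times the count, while 33 moved, 5 reversed, 6 were weaker and 1 was stronger. Of those of single members 416 kept theirs, with 45 weaker and 1 stronger. The causes of the other changes were not tested. With DESeq2, 2 members were higher and 5 lower in Spc, and 3 lower in RS. With library size, 17 were higher and 1 lower in RS, and 5 higher and 28 lower in RS against Spc of CTRL. With the factors of the miRNA table, 23 were higher and 1 lower in Spc, 2 lower in RS, and 16 sums per amino acid passed in Spc. Without a count filter 13 members were higher in RS. In 1 fit over all libraries 5 members passed in Spc (4 shared), 14 in RS (10 shared) and 29 in RS against Spc of CTRL (28 shared). Without the 3 libraries highest in erythroid miRNAs, 5 were higher in Spc and 17 in RS. Without S24 and S25, 8 sums passed in Spc. As each library was left out, members called in Spc ranged from 1 to 7 higher (7 without S23) and 2 to 4 lower, in RS from 3 to 9 higher (3 without S20) and 2 to 18 lower (2 without S15, 18 without S16), and in the interaction from 5 (without S19) to 17 (without S16). Sums passed in 3 to 6 cases in Spc, 6 to 18 in RS (6 without S15, S18, S19 or S20) and 5 to 10 in the interaction. The share of unlabelled counts differed between cKO and CTRL Spc by 1.04 points over the counts of both tables (exact permutation test, p = 0.00794), where CTRL RS and CTRL Spc differed by -0.086 (exact permutation test, p = 0.571). On that scale all tRNA counts together were also higher in every cKO Spc library than in any CTRL Spc library. As a share of the tRNA table, as libraries were left out, the difference of CTRL RS from CTRL Spc ranged from -1.45 to -1.01, that of cKO from CTRL from 0.547 to 1.65 in Spc and from 0.998 to 3.13 in RS, and the share of cKO RS against cKO Spc from -1.53 to 0.594, with 0.0105 without S15 and 0.429 without S25. It was 1.94 without S15, S17 and S22, and 0.915 without S24 and S25. Depth limits the mitochondrial entries in CTRL RS, with 0 to 74 counts per library.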
